A study of Drosophila melanogaster with 4 samples.

Results

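Hsp23 and Hsp26 are neighbouring small heat shock genes of the fruit fly Drosophila melanogaster, and in the authors' deposited table of selected genes they stood on opposite sides. They are described here among 244 genes of larval airway tissue in which a bacterial sensor had been overexpressed. The 2 members were taken by gene identifier, CG4463 for Hsp23 and CG4183 for Hsp26, and each had 1 row. Hsp23 had a mean log2 ratio of 1.27 and Hsp26 one of -0.91 in the authors' deposited table.

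Small heat shock proteins are chaperones built around an alpha-crystallin domain. They bind unfolding proteins and hold them in a soluble state until ATP-dependent chaperones such as those of the Hsp70 family refold them. In Drosophila several of their genes lie together in the 67B cluster of chromosome arm 3L. They are induced by heat through the heat shock factor Hsf, and at the end of larval life also by the moulting hormone ecdysone. Hsp23 and Hsp26 encode mainly cytoplasmic members of the family.

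Tracheae, the air-filled tubes of the larva, were dissected from third-instar larvae grown at 22 °C to an age of about 10 days, with 20 pairs pooled per RNA. One group carried the driver strain NP2610 together with UAS-PGRP-LE as F1 progeny of a cross, so that PGRP-LE, a peptidoglycan receptor that starts the immune deficiency (IMD) pathway, was overexpressed. The control was the driver strain NP2610 without the UAS transgene, and the design text describes the driver as specific for the larval tracheal system. Both RNAs were hybridised to the same two-colour array, on 4 arrays that the titles name as 2 biological replicates with 1 technical replicate each. Pools of larvae were compared and not single animals, and the driver strain had not been crossed, so genetic background and PGRP-LE cannot be told apart. In such pooled tissue, more RNA per cell and more cells of a type cannot be told apart either.

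The sign of the ratio is likely but not certain. The rows are headed with the PGRP-LE cross, which the labels place in channel 1 of every array, so that a positive ratio is taken to mean more RNA in PGRP-LE tracheae, and "higher" and "lower" have that meaning here. On 1 array both channels are labelled Cy5 in the label fields, which leaves its dye orientation unsettled. PGRP-LE itself had no row, so the overexpressed gene gives no check of the sign. All 10 antimicrobial peptide genes with a row had positive ratios as given, and 0 of the 10 had with the ratio turned. Whether these genes settle the sign was not tested. Turning the pooled ratio as a whole leaves Hsp23 and Hsp26 with opposite signs, makes 23.4% of the genes higher and puts Hsp23 among 187 lower genes. The effect of turning a single array was not run for them.

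Hsp23 was higher in the tracheae with PGRP-LE. The authors' deposited table gave it a mean log2 ratio of 1.27 with an SD of 0.68 over 8 valid spots, a 2.41-fold difference. The range of 1 SD around that mean ran from 0.59 to 1.95 in the authors' deposited table, and 2 SD below the mean was -0.09. That the range of 1 SD does not reach 0 holds for all 244 selected genes and is no property of Hsp23. Hsp23 was among 187 higher genes, which made up 76.6% of the authors' deposited table, and 43 of them had a larger ratio. Its ratio lay above the median of the higher genes, which was 0.92 in the authors' deposited table.

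Hsp26 was lower. The authors' deposited table gave it a mean log2 ratio of -0.91 with an SD of 0.61 over 6 valid spots, a 1.88-fold difference in the other direction. The range of 1 SD ran from -1.52 to -0.30 in the authors' deposited table, and 2 SD above the mean was 0.31. Hsp26 belonged to the 57 lower genes, 23.4% of the authors' deposited table, of which 28 had a lower ratio. It was the middle gene of this side, since the median of the lower genes was also -0.91 in the authors' deposited table.

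**Figure D1:**
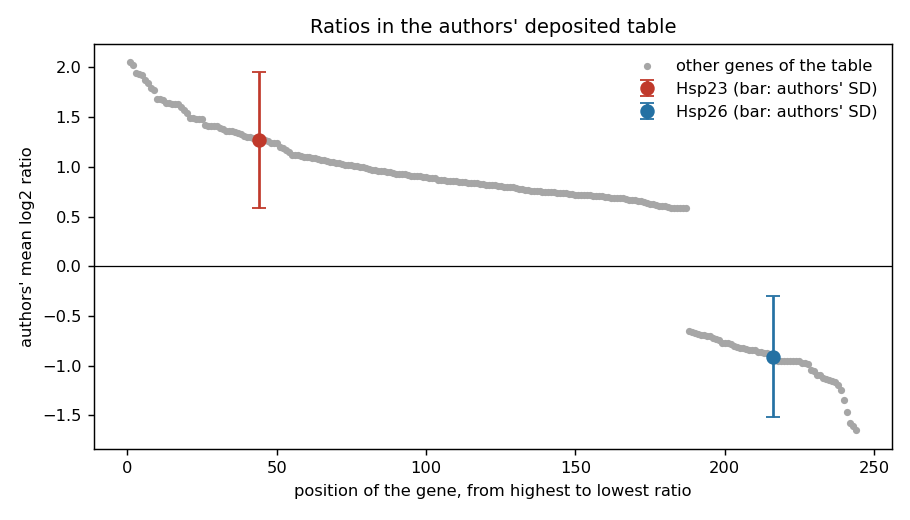
The authors' mean log2 ratio (y axis) of all 244 genes of the deposited table, ordered from the highest to the lowest (x axis, position), with Hsp23 in red, Hsp26 in blue and bars of 1 authors' SD over spots. Hsp23 at 1.27 sits in the upper part of the 187 higher genes and Hsp26 at -0.91 in the middle of the 57 lower ones, and no gene lies between -0.65 and 0.59.

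The 2 ratios differed by 2.18 on the log2 scale in the authors' deposited table, so that the ratio of Hsp23 to Hsp26 RNA was 4.53-fold higher in PGRP-LE tracheae than in the driver strain. The root of the summed squares of both SDs was 0.91 in the authors' deposited table. Since no gene of the table reaches 0 within 1 SD, the ranges of any higher and any lower gene are apart by selection, and the gap is no evidence that Hsp23 and Hsp26 differ. The means rest on 8 and 6 spots that need not come from the same arrays. The files give no p-value for a gene, and spots of 1 array are not independent replicates, so no test of the difference was made. With 2 biological replicates an exact sign-flip permutation test could not go below p = 0.5.

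The spread of both genes was ordinary for the table. Of the 244 genes, 72 had a larger SD than Hsp23 and 96 a larger one than Hsp26 in the authors' deposited table, where the median SD was 0.52. The coefficient of variation, the SD divided by the size of the mean, was 0.54 for Hsp23 and 0.66 for Hsp26 in the authors' deposited table, on either side of the median of 0.585. Neither gene belonged to the 80 genes, 32.8% of the authors' deposited table, with a coefficient under 0.5. At 8 spots Hsp23 had the number shared by 134 genes, while Hsp26 had the smallest number in the authors' deposited table, 6, as had 73 genes in all.

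**Figure D2:**
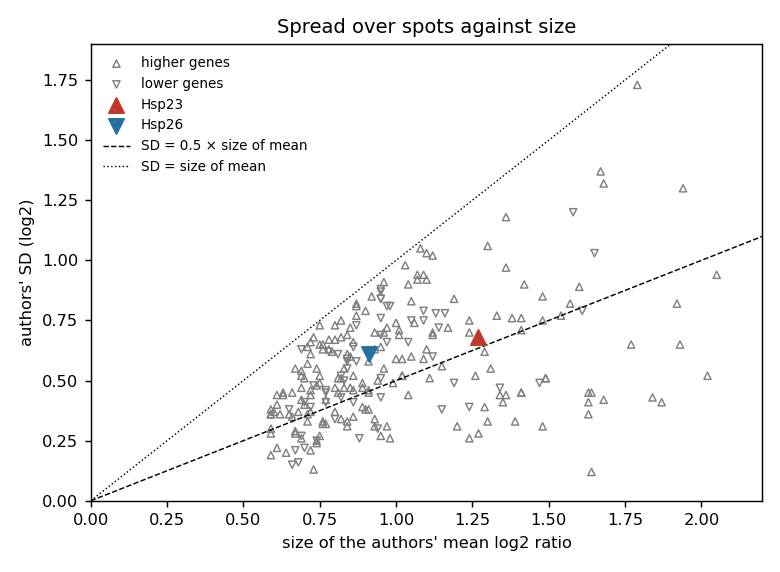
The authors' SD over spots (y axis, log2) against the size of the mean log2 ratio (x axis) for each gene of the deposited table, with upward triangles for higher and downward triangles for lower genes. Hsp23 (red) and Hsp26 (blue) both lie between the dashed line, where the SD is 0.5 times the mean, and the dotted line, where it equals the mean, with coefficients of variation of 0.54 and 0.66.

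No other gene of the 67B cluster had a row. The cluster list held 7 genes, and Hsp22, which encodes a mitochondrial member, Hsp27, Hsp67Ba, Hsp67Bc and CG4456 (Hsp67Bb in the list) were absent from the authors' deposited table. In RefSeq gene order a single protein-coding gene, Hsp67Ba, separates Hsp26 from Hsp23, and Hsp27 follows Hsp23 directly. CG4461, an alpha-crystallin domain gene kept in another list, lies between Hsp22 and Hsp26 and had no row either. The nearest other gene with a row was Acbp5 on one side, beyond 71 protein-coding genes, where the authors' deposited table gave -0.68 (SD 0.16, 8 spots). On the other side it was the cuticle protein gene Cpr67Fa2, beyond 154 protein-coding genes, where the authors' deposited table gave 0.72 (SD 0.66, 8 spots). The opposite ratios of Hsp26 and Hsp23 were thus the only values given for this neighbourhood. PGRP-LC, the transmembrane receptor of the IMD pathway, lies before Hsp26 with 14 protein-coding genes between them, and neither it nor the neighbouring PGRP-LF, which encodes an inhibitory receptor, had a row.

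**Figure D3:**
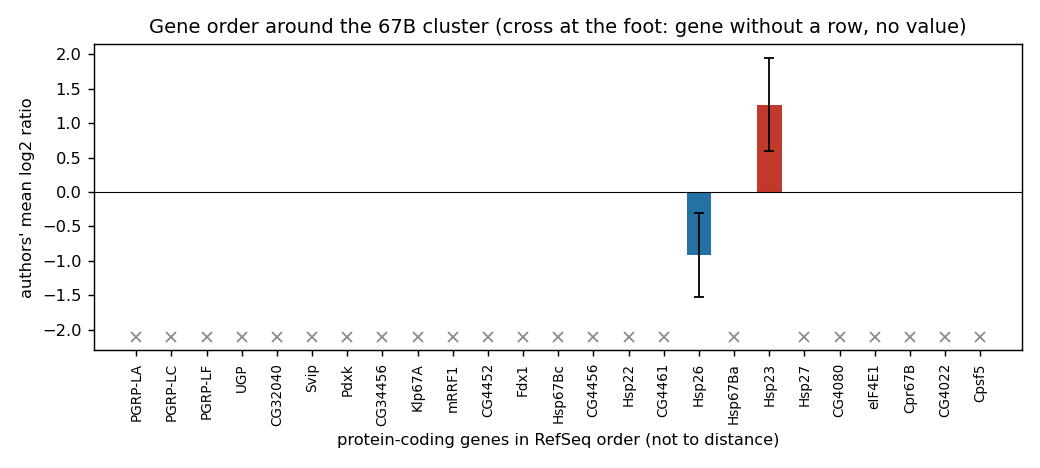
The authors' mean log2 ratio (y axis, bars with 1 authors' SD) of Hsp26 and Hsp23 in the RefSeq order of protein-coding genes around them (x axis, evenly spaced, not to distance); crosses at the foot mark genes without a row and carry no value. Hsp26 at -0.91 and Hsp23 at 1.27 are the only genes of this stretch with a value, with Hsp67Ba between them.

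Other heat shock genes were absent as well. Over 4 lists of 45 heat shock, chaperone and co-chaperone genes, Hsp23 and Hsp26 were the 2 with a row, and 43 had none. The further planned names HspB8, Hop, Hsrw, Hip and CHIP matched no single reference gene and are not among the 45. No row was found for the other genes with an alpha-crystallin domain, l(2)efl, CG14207, CG4461, CG7409, CG13133 and CG43851. The inducible chaperone genes Hsp68 and Hsp70Aa, Hsp70Ab, Hsp70Ba, Hsp70Bb, Hsp70Bbb and Hsp70Bc had no row, nor did Hsp83, the fly Hsp90 gene, and Hsp110. The same held for the mitochondrial and related chaperonin genes Hsp60A, Hsp60B, Hsp60C and Hsp60D, for CG11267 (Hsp10 in the list) and for Trap1. The constitutive genes Hsc70-1, Hsc70-2, Hsc70-4 and Hsc70-5 were missing too. Among regulators and co-chaperones there was no row for Hsf, the transcription factor of the heat shock response, for DnaJ-1, Droj2, mrj, DnaJ-60, stv, STUB1, HIP-R, Cdc37, p23, Fkbp59 and Tpr2, or for the heat-induced non-coding RNA lncRNA:Hsromega. A gene without a row was not selected by the authors or not measured, and its ratio is not known. The share of all array genes that had a row is not known, since the 32448 features carry no gene names. The 2 of 45 cannot be set against it, and the missing rows are no result about heat shock genes.

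Annotation in the file links the 2 genes to few others. Hsp23, Hsp26 and CG32640 were the 3 genes that the file annotates with response to heat, and also the 3 with protein folding. CG32640, annotated in addition with unfolded protein binding, had a ratio of 0.61 in the authors' deposited table (SD 0.22, 8 spots). It stood on the side of Hsp23, near the smallest positive ratio of 0.59. Hsp26 shared the term determination of adult life span with mthl10 at 0.75 and mthl3 at -0.87 in the authors' deposited table, both genes of the methuselah-like receptor family. Hsp23 shared actin binding with dbo at 0.82 in the authors' deposited table.

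Both genes also carried the term defense response, assigned electronically, which 13 genes of the authors' deposited table had. Of these, 10 were higher and 3 lower (3 and 10 with the ratio turned), against 76.6% higher among all 244, and their median was 1.17, against 0.82 for all genes of the authors' deposited table. Hsp23 was the sixth of the 13. It followed the antibacterial peptide gene AttC at 2.02, Drsl1 at 1.54 and Drsl4 at 1.48, both drosomycin-like, the glutathione transferase gene GstE6 at 1.39 and mv at 1.30 in the authors' deposited table. PGRP-SD, a secreted recognition protein gene, came after it at 1.17 in the authors' deposited table. Hsp26 was on the lower side with GstT3 at -0.70 and dsd at -0.95 in the authors' deposited table. The other higher genes were GstE7 at 1.09, GstE1 at 0.71 and Tsf1, a transferrin gene, at 0.70 in the authors' deposited table.

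**Figure D4:**
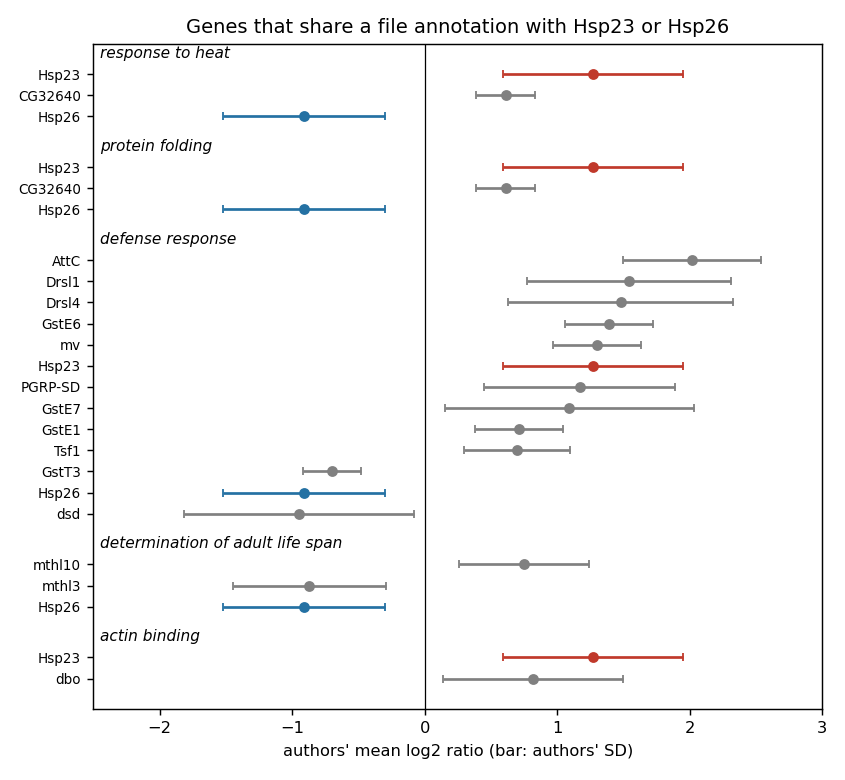
The authors' mean log2 ratio (x axis, bars of 1 authors' SD) of each gene of the deposited table that shares a Gene Ontology term with Hsp23 (red) or Hsp26 (blue), grouped by term (y axis, genes). Hsp26 at -0.91 and Hsp23 at 1.27 lie on opposite sides, and the same pair of values is drawn again under each of the 3 terms they share. Among the 13 defense response genes 10 are above 0, against 76.6% of all 244 genes.

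The fixed lists of stress and hormone genes gave little beside them. The share of all array genes that had a row, against which their counts could be read, is not known. None of 13 endoplasmic reticulum stress genes and none of 23 other stress genes, which included Turandot, metallothionein and antioxidant genes, had a row. Of 29 ecdysone response genes only Hr39, a nuclear receptor gene, had one, which stood at -0.86 in the authors' deposited table (SD 0.64, 16 spots), on the side of Hsp26. Of 21 antimicrobial peptide genes 10 had a row and all 10 were higher, against 76.6% of all 244 genes, with a median of 1.48 and a range from 0.86 to 2.02 in the authors' deposited table. AttC at 2.02, AttA at 1.84 and CecA2 at 1.68 led that list in the authors' deposited table, and the ratio of Hsp23 lay inside the list's range. So did 0.92, the median of all higher genes, so lying inside it is no particular likeness to these genes.

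Many genes had ratios like those of the members. For Hsp23 the closest in mean were the small nuclear RNA snRNA:U5:38ABa and nompB, both at 1.27, and the septate junction gene Cont at 1.26 in the authors' deposited table. For Hsp26 the closest were sano at -0.94 and CG7214 at -0.88 in the authors' deposited table. After them 10 genes were tied at a difference of 0.04, of which mthl3 at -0.87 had the most similar SD in the authors' deposited table. Likeness was measured by the pooled mean alone, a choice made after the values were seen, because profiles over arrays could not be read for named genes. Within 1 SD of Hsp23 lay 184 of the other 186 higher genes, and within 1 SD of Hsp26 lay 53 of the other 56 lower genes of the authors' deposited table. The selected ratios began at 0.59 and -0.65, and both ranges reach these limits, so such high counts are no particular likeness. By gene number, Hsp23 had 1 gene of the table within 20 CG numbers, Tsp42Ep on arm 2R, which stood at 1.36 in the authors' deposited table (SD 1.18, 6 spots). Hsp26 had none.

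Values of single arrays exist for 32448 numbered features, but these carry no probe or gene name, so none could be assigned to Hsp23 or Hsp26. Pearson correlations between arrays, across features that are not independent, ran from -0.0861 to 0.106. They were -0.0861 and 0.00816 for the 2 pairs of arrays of 1 biological replicate. Within 1 array, each odd-numbered row correlated with the row after it at 0.307 to 0.555. With technical arrays averaged, limma called 0 features (0%) at an adjusted p under 0.05. As even arrays of 1 biological replicate hardly correlated, that fit could detect little. Its 0 calls do not show that no feature differs. An unadjusted p under 0.05 was found for 1256 of the 32448 features. In this fit the share is below the 0.05 that evenly spread p-values would give. It was above 0.05 with arrays centred on their median (1884 features) and with the biological replicate as a random block (1649 features). Of 64 marker genes in 7 lists of cell types, 7 had a row in the authors' deposited table, with the share over all array genes not known. None was among the 10 airway markers. Ratios between 2 RNAs labelled as the same tissue cannot check the tissue label, whichever markers have a row. The part of the marker genes in the ratios of Hsp23 and Hsp26 was not tested. For blood cells the authors' deposited table had NimB2 at 0.80 and atilla at 0.74, and for fat body it had Tsf1 at 0.70 and Lsp2 at -0.86. For muscle, gut and neurons the authors' deposited table had 1 gene each, Mf at -1.09, Jon99Fi at -1.58 and fne at -0.95, and for salivary gland none.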

How the data were processed

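Per the file headers, the authors deposited for each gene a mean log2 ratio, its SD on the log2 scale, the number of valid spots and the coefficient of variation, a ratio. Per the series' design text the genes were selected from SAM and GeneTraffic output. For the selection thresholds, the background correction and the normalization, the steps were not given in the sources used here. All 244 rows had at least 6 spots, and the small numbers of spots and arrays limit the precision. A second deposited table holds a score per array and feature that resembles a log ratio, with base, centring and direction not stated. Its array medians were 0.98, -0.39, -0.07 and -0.41.

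Gene identifiers were matched to RefSeq names of assembly Release 6, 227 through their locus tag and 13 through an older tag or synonym, and 4 were left as the file names them. The table of scores has no gene names, so the planned limma fits for Hsp23 and Hsp26 were replaced by the authors' means with no test. Limma 3.58.1 in R 4.3.3 (lmFit, eBayes, Benjamini-Hochberg) was run over all features on the 2 biological replicates, with technical arrays averaged. A run on simulated, independent features checked the code only, since rows of the real arrays were correlated. The members and all lists were chosen with earlier results of these data known. Genes named are the members, the heat shock lists, up to 3 genes of each further list, genes sharing a file annotation and the 3 nearest genes by mean. The last 2 rules were chosen after the values were seen. Genes near the members in gene order or by CG number are named in addition, which the planned rule did not cover. Python 3.11.15, numpy 2.4.6, pandas 2.3.3 and matplotlib 3.10.9 were used.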

Additional observations from a re-analysis of the deposited data

How the results depend on the processing

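Reading the ratio the other way gives -1.27 for Hsp23, 0.91 for Hsp26 and -2.18 for their difference, by construction. These 3 values are pooled over arrays, so leaving out a replicate or an array, centring, a replicate as a random block and single probes were not run for them. Each ratio already pairs both RNAs within an array, and with 1 group of arrays no further pairing was fitted. Turned, 57 of the 244 genes are higher and 187 lower. For the 32448 unnamed features, limma called 0 at an adjusted p under 0.05 in each of the 12 settings run. At an unadjusted p under 0.05 there were 280 to 1884 of the 32448. The settings covered a random block, 4 separate arrays, centring and each array left out. They also covered features with a value on all 4 arrays, the sign turned, and arrays turned by their dye labels. The last was chosen after seeing the data. Turning the sign and keeping features with a value on all 4 arrays repeat the main fit by construction, as no feature lacked a value. With 2 biological replicates and scores that hardly correlated between arrays, 0 calls do not show that no feature differs. Leaving out a biological replicate leaves 1 and no test. The 6 to 8 spots limit the precision of both means.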
